A study of Mus musculus with 9 samples.

Results

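The Vmn1r genes, which encode the V1R family of vomeronasal receptors, were read on single-colour Agilent arrays of mouse abdominal aorta. Members were all probes whose RefSeq identifier in the scanner files mapped to a gene symbol that begins with Vmn1r. There were 12 such genes, each with 1 probe and 1 spot per array, among the 112 symbols that RefSeq identifiers gave on an array of 59709 probes. The 12 genes were Vmn1r62, Vmn1r63, Vmn1r93, Vmn1r111, Vmn1r135, Vmn1r157, Vmn1r186, Vmn1r187, Vmn1r241, Vmn1r243, Vmn1r257 and Vmn1r259, and all 12 lie on chromosome 7. The RefSeq name table held 373 Vmn1r genes, of which 231 were protein coding and 176 lay on that chromosome.

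All 9 arrays carried Cy3-labelled RNA from the aorta of male mice, 3 arrays per group. Control mice were labelled wild type and received no aneurysm treatment by their labels. The second group was labelled with calcium phosphate (CaPO4), an agent laid on the vessel to induce an abdominal aortic aneurysm, and the third held mice with an aneurysm that were also given naringenin, a citrus flavonoid. Strain, age, dose and time were not given in the sources used here. The labels say that aortas were mixed but not whether an array held a pool, so the p-values measure the spread between these arrays, which may be technical.

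V1R proteins are G protein-coupled receptors of sensory neurons in the apical layer of the vomeronasal organ, where they detect pheromones and other chemical cues and signal through Gnai2 and the channel Trpc2. A vomeronasal neuron typically expresses a single receptor gene. The family grew by repeated local duplication in rodents, so many members are near copies of their neighbours, and the aorta is not a tissue in which its chemosensory role is known.

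The probe sequences were not used here, and the proximity of copies was read instead from RefSeq windows of 300 bases, 250 before to 50 after each gene's start, on GRCm38.p6. Of the 12 genes, 10 had a window and Vmn1r186 and Vmn1r187 had none in the table. The windows of the 6 genes detected on every array are shown because these genes carry the results, and because they show how little separates some members. They are written 5′ to 3′ on the gene's own strand, and capitals mark bases that differ from the Vmn1r157 window or are absent from it in a global alignment. In each printed window the 50 bases after the gene's start open with atg. That start may be a start codon, and the windows are not shown to be promoters. Vmn1r157 (chr7:22761447-22761746, plus strand), Vmn1r135 (chr7:21832101-21832400, plus), Vmn1r111 (chr7:20703167-20703466, minus), Vmn1r241 (chr7:20205558-20205857, minus) and Vmn1r259 (chr7:23019874-23020173, minus) gave 5 distinct sequences. The window of Vmn1r257 (chr7:22692268-22692567, minus) was identical to that of Vmn1r111 and is not repeated.
Vmn1r157: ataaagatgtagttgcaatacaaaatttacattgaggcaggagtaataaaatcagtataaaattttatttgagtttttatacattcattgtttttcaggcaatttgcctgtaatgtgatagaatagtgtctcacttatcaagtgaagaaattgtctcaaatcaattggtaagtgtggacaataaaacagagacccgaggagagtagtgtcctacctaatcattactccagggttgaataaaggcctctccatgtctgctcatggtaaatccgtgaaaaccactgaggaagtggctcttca
Vmn1r135: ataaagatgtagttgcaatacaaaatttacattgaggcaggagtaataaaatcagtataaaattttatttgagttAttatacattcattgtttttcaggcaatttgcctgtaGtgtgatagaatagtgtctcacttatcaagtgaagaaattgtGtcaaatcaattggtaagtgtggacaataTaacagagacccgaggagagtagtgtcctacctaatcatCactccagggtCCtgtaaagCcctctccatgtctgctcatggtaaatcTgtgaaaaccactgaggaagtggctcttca
Vmn1r111: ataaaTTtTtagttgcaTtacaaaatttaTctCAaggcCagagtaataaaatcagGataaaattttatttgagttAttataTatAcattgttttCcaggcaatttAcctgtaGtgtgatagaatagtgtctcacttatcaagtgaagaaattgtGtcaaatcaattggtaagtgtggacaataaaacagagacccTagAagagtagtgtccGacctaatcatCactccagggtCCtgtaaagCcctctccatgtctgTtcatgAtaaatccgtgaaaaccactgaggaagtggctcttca
Vmn1r241: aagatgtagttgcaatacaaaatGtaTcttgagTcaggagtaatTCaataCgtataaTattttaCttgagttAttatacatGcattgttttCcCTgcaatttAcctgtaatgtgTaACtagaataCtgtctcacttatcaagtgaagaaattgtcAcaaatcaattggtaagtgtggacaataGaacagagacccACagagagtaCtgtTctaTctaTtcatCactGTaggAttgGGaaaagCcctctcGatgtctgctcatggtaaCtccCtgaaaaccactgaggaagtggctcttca
Vmn1r259: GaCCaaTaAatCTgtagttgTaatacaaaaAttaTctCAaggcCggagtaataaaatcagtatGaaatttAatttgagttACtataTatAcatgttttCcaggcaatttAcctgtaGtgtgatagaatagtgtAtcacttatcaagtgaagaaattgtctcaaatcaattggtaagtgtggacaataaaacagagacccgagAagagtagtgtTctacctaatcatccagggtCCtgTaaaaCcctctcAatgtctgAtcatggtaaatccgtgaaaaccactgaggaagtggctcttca
The Vmn1r135 window had 9 capitals and 96.3% identity to that of Vmn1r157, and the Vmn1r111 window had 25 capitals and 90.3% identity. The Vmn1r259 and Vmn1r241 windows were more distant, at 87.0% and 85.7%.

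Identical windows also existed outside the array. Over all 206 Vmn1r windows, 8 of the 10 members with a window shared it base for base with at least 1 other Vmn1r gene. Vmn1r111 and Vmn1r257 each had 5 such partners, which include each other. Vmn1r93 had 3 (Vmn1r114, Vmn1r126 and Vmn1r250), and Vmn1r157 had 2 (Vmn1r112 and Vmn1r139). Vmn1r241, Vmn1r243 and Vmn1r259 also had 2 each, and Vmn1r135 had 1 (Vmn1r163). At 95% identity or more the number of other Vmn1r genes was 19 for Vmn1r157 and 18 for Vmn1r135, against a share of 1.85% of all Vmn1r pairs at that identity and a median pair identity of 48.0%. Vmn1r62 and Vmn1r63 stood apart, with nearest Vmn1r windows at 51.0% (Vmn1r233) and 90.3% (Vmn1r58). Among genes not named Vmn1r, the nearest window reached 97.7% identity to that of Vmn1r241 and 97.0% to those of Vmn1r243 and Vmn1r93. For the other members with a window it reached at most 86.7%. Near copies thus also lay outside the family symbol. A window at the gene start is not the stretch a probe binds. Whether the probes also bind the copies was not tested, so the signal of the 8 members with an identical window is read as that of the gene or its copies.

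**Figure D1:**
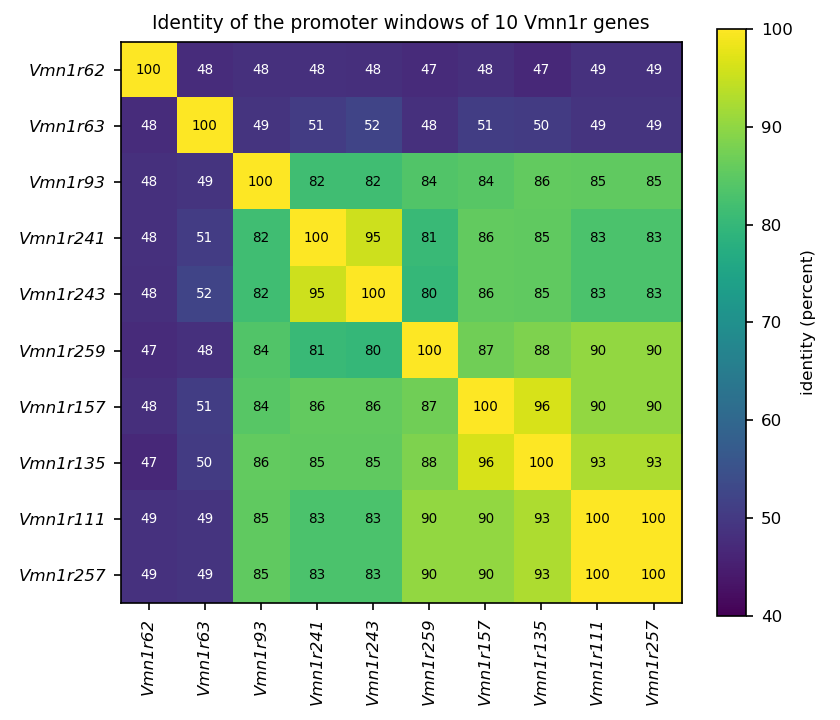
Identity of the RefSeq gene-start windows (in percent) for the members that have one, from global alignment of 300 bases. The Vmn1r111 and Vmn1r257 windows were 100% identical, Vmn1r135 and Vmn1r157 shared 96.3% and Vmn1r241 and Vmn1r243 95.3%, while the nearest window of Vmn1r62 anywhere in the family reached 51.0%.

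The TATA-like hexamer TATAAA was found on either strand in 4 of the 10 windows (Vmn1r62, Vmn1r93, Vmn1r135 and Vmn1r157), in 42.2% of all Vmn1r windows and in 13.6% of the 32851 windows of all genes. The homeodomain core TAATTA, which reads the same on both strands, was found in 1 of the 10 (Vmn1r63), in 7.28% of Vmn1r windows and in 5.29% of all windows. These matches describe the letters of the windows and are not shown to be sites, and the windows are not shown to be promoters.

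Levels are given as log2 of the background-subtracted intensity minus the 75th percentile of the same array, so that 0 is that percentile. The scanner's flag for a spot well above background was set for 37.1% to 84.1% of all probes per array, the highest being naringenin 3. Arrays of a group did not always resemble each other. CaPO4 1 and CaPO4 3 correlated at 0.994 over 18743 probes, but CaPO4 2 correlated with them at 0.821 and 0.828 and with naringenin 1 and naringenin 2 at 0.972 each, against its label. Naringenin 1 and naringenin 2 correlated at 0.996, and naringenin 3 with them at 0.945 and 0.948. The controls were scanned together in scan 1, naringenin 3 alone in scan 2 and the other 5 arrays in scan 3. Control and scan therefore cannot be told apart. Results that rest on CaPO4 2 are given with and without it.

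Across 12 genes and 9 arrays, 73 of 108 gene-by-array values (67.6%) were well above background. Vmn1r111, Vmn1r135, Vmn1r157, Vmn1r241, Vmn1r257 and Vmn1r259 were so on 9 of 9 arrays. Vmn1r62 was well above background on 5 arrays (control 3, CaPO4 2 and the 3 naringenin arrays), and Vmn1r93, Vmn1r187 and Vmn1r243 on 4 (CaPO4 2 and the 3 naringenin arrays). Vmn1r63 and Vmn1r186 were detected on 1 array each, naringenin 3. By array, the number of the 12 genes detected was 6, 6 and 7 on controls, 6, 10 and 6 on CaPO4 and 10, 10 and 12 on naringenin arrays. CaPO4 2 thus held the same number as naringenin 1 and naringenin 2, while CaPO4 1 and CaPO4 3 held the same number as controls 1 and 2. The 111 other RefSeq probes had a like step. They were detected at 72.1% to 78.4% on controls, 69.4% and 64.9% on CaPO4 1 and 3, 91.9% on CaPO4 2 and 84.7% to 95.5% on naringenin arrays.

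The array also carried 1200 spots that the design names as negatives for the mouse genome, and their signal was used as a measured background. The flag was set for 1.08% of them on CaPO4 3, for 3.33% on CaPO4 1, for 8.92% to 14.6% on the controls, CaPO4 2, naringenin 1 and naringenin 2, and for 41.4% on naringenin 3. All 12 Vmn1r genes were flagged on naringenin 3, the array on which the flag was set most often for negative spots. Against a stricter bar, the 99th percentile of the negative spots of the same array, 51 of the 108 values (47.2%) were higher. The counts above it were 1, 0 and 5 of 12 genes on controls, 6, 9 and 6 on CaPO4 and 9, 8 and 7 on naringenin arrays. Of all probes, 33.1% to 36.8% were above it on the controls, 36.4% to 38.7% on the CaPO4 arrays, 38.2% and 36.4% on naringenin 1 and 2 and 23.3% on naringenin 3. By this measure the 6 genes flagged on all arrays were mostly within the range of the negative spots on the controls: their values lay above 93.5% to 100% of them there. The value of 93.5% was that of Vmn1r259 on control 2.

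**Figure D2:**
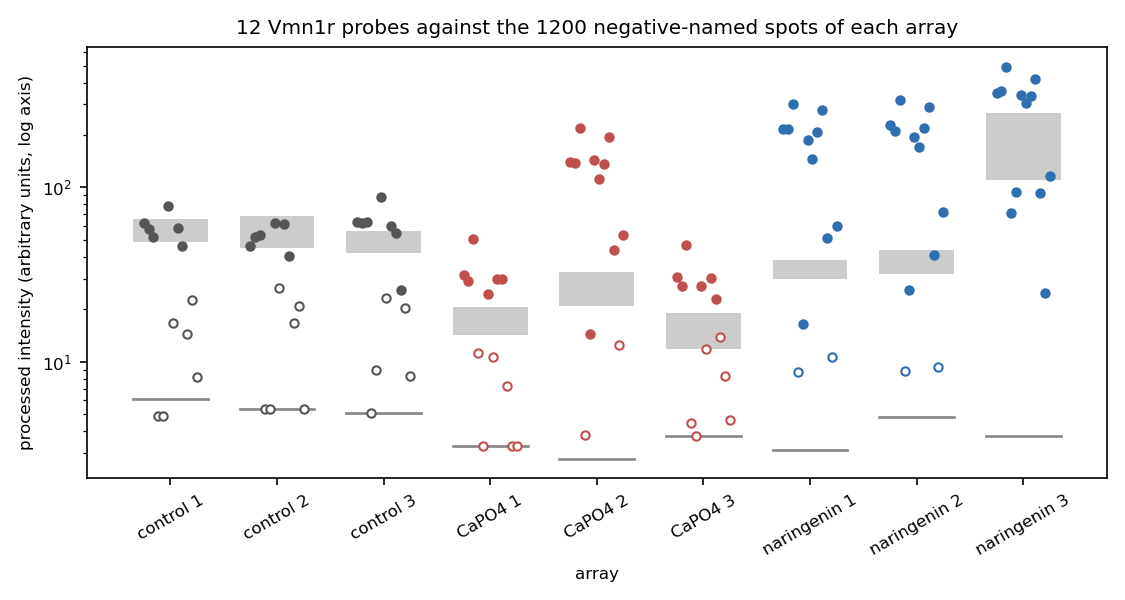
Processed intensity (arbitrary units, log axis) of the 12 Vmn1r genes on each of the 9 arrays; filled points are well above background and open points are not, the grey line is the median of the 1200 negative spots and the grey band their 95th to 99th percentile. On controls 1 and 2 the genes lie within or below the band except for 1 value on control 1, whereas 8 to 9 genes lie above it on CaPO4 2, naringenin 1 and naringenin 2.

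Vmn1r157 (NM_001166754 in the scanner files), detected on every array, was the only member called in more than 1 comparison below. On the controls it read −1.18, −1.13 and −0.89, with CaPO4 0.19, 1.39 and 0.14, and with naringenin 1.79, 1.78 and 1.07. Group means were −1.07 ± 0.15, 0.57 ± 0.71 and 1.55 ± 0.41 (SD, n = 3 arrays each). The 3 controls lay below all other arrays, and CaPO4 2 lay within the range of the naringenin arrays while CaPO4 1 and CaPO4 3 lay below it. Vmn1r259 (NM_001167166) read −1.35, −1.54 and −1.10 on controls, −0.57, 1.23 and −0.89 on CaPO4 and 1.68, 1.65 and 0.84 on naringenin arrays. It had the same order, with CaPO4 2 again among the naringenin arrays.

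Vmn1r111 (NM_001166746) and Vmn1r257 (NM_001167154), whose windows are identical, moved almost as 1 signal, as did Vmn1r135 (NM_001166747). Vmn1r111 read −0.91, −1.33 and −0.89 on controls, −0.50, 0.74 and −0.48 on CaPO4 and 1.31, 1.31 and 0.57 on naringenin arrays. Vmn1r257 read −1.00, −0.92 and −0.96 in the controls, then −0.58, 0.71 and −0.49, then 1.26, 1.25 and 0.52. Vmn1r135 read −1.02, −1.16 and −0.91, then −0.62, 0.72 and −0.64, then 1.31, 1.20 and 0.61. In all 3 genes each CaPO4 and naringenin array lay above each control. After each gene was centred on its own mean, the mean absolute difference over the 9 arrays was 0.079 log2 between Vmn1r257 and Vmn1r135, 0.079 between Vmn1r111 and Vmn1r135 and 0.094 between Vmn1r257 and Vmn1r111. Spots that repeat 1 probe on the same array had a median SD of 0.037 to 0.111 log2 (15 such probes), and a highest SD of 0.142 to 1.13. An SD within 1 array is not the same measure as these differences, so the 2 are not compared. The closest pair was thus not the pair with identical windows.

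Vmn1r241 (NM_001167153) differed from these in the CaPO4 group. It read −0.57, −0.89 and −0.40 on controls, −0.86, 0.79 and −0.64 on CaPO4 and 1.11, 1.08 and 0.52 on naringenin arrays. CaPO4 1 and CaPO4 3 fell inside the range of the controls, and CaPO4 2 inside that of the naringenin arrays.

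**Figure D3:**
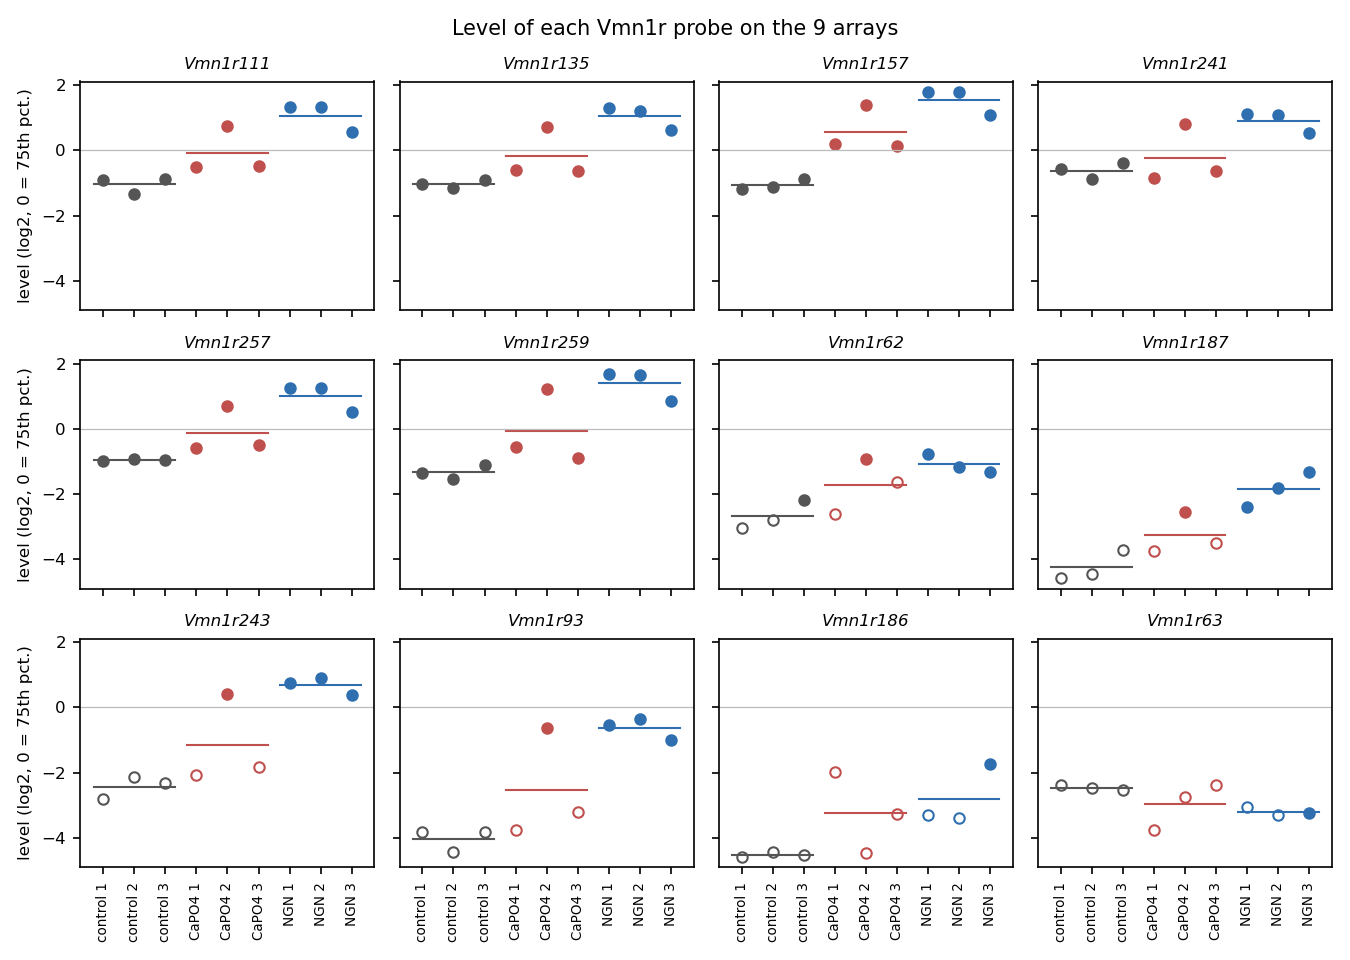
Level (log2 intensity minus the array's 75th percentile) of each of the 12 Vmn1r genes on the 9 arrays, by group; filled points are well above background, open points are not, and horizontal lines are group means. In the 10 genes detected on 4 or more arrays the highest CaPO4 point is CaPO4 2, which lies within the range of the naringenin points in 9 of them, all but Vmn1r187.

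The genes detected on 4 or 5 arrays had their detected values on the arrays where the others were high, apart from control 3 for Vmn1r62. Vmn1r93 (NM_207547) read −3.84, −4.44 and −3.83 on controls, −3.76, −0.64 and −3.20 on CaPO4 and −0.54, −0.36 and −1.02 on naringenin arrays. Its controls and CaPO4 1 and 3 were not well above background, and control 2 and CaPO4 1 were at the lowest intensity that the scanner software gave. Vmn1r243 (NM_001167158) read −2.81, −2.14 and −2.33, then −2.06, 0.41 and −1.84, then 0.74, 0.89 and 0.39 in the same order. Its separation was between CaPO4 2 with the naringenin arrays and the other 5 arrays.

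Vmn1r62 (NM_030741), the member with no close copy, read −3.03, −2.80 and −2.18 on controls, −2.62, −0.93 and −1.62 on CaPO4 and −0.76, −1.16 and −1.33 on naringenin arrays. CaPO4 2 again lay among the naringenin arrays. Vmn1r187 (NM_001167568) read −4.58, −4.44 and −3.71, then −3.76, −2.54 and −3.51, then −2.40, −1.83 and −1.33. Controls 1 and 2 and CaPO4 1 and 3 of Vmn1r187 were at the scanner's lowest value, so its differences rest on a floor.

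Vmn1r63 (NM_030742) and Vmn1r186 (NM_001167567) did not pass the filter of 3 detected arrays and entered no test. Vmn1r63 ranged from −3.76 to −2.37, with group means of −2.46 on controls, −2.96 on CaPO4 and −3.20 on naringenin arrays. Its order was the reverse of that of the other members. On naringenin 3, the only array on which it was well above background, it was brighter than 67.9% of the negative spots. Vmn1r186 ranged from −4.58 to −1.73, with its 3 control values at the scanner's lowest value.

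Naringenin arrays were compared with control arrays with limma, over all 37307 probes that had passed the filter and had values in both groups, and a gene was called at an adjusted p under 0.05. Of all probes tested, 22.6% were called higher and 45.9% called in either direction. All 10 Vmn1r genes tested were called higher, the other 2 having been left out by the filter. The median change was 2.25 log2, against 0.02 over all probes and 1.33 over the other RefSeq probes. In all 10, each naringenin array lay above each control, as in 33.7% of all probes with full values. Vmn1r93, Vmn1r187 and Vmn1r243 met the filter only through the 3 naringenin arrays and CaPO4 2. Vmn1r62 met it only with naringenin arrays counted, beside control 3 and CaPO4 2. The entry of these genes, and with it this count and median, depended in part on the group where they were high. The 6 genes detected on all arrays did not depend on it, and all 6 were called.

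The 3 genes that were detected on no control can be given only as bounds, and their p-values are those of genes that entered through the arrays where they were high. Vmn1r93 rose by 3.40 ± 0.69 log2 (SE, limma adjusted p = 0.00376), and since it was not well above background on any control this is stated as at least 2.94-fold. Vmn1r243 rose by 3.10 ± 0.59 (limma adjusted p = 0.00287), or at least 7.27-fold on the same bound. Vmn1r187 rose by 2.39 ± 0.44 (limma adjusted p = 0.00252), but the bound allowed only at least 1.27-fold. These bounds set the control mean at the lowest signal of any well above background probe, or at the probe's own value where that was higher, on the scanner's background-subtracted scale. With normexp background correction, which adds an offset of 50 to every intensity before the log, the fitted changes were 0.81 for Vmn1r93, 1.53 for Vmn1r243 and 0.67 for Vmn1r187, and the bounds for Vmn1r93 and Vmn1r243 do not hold on that scale.

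Among genes detected on all arrays, Vmn1r259 rose 6.58-fold (2.72 ± 0.53 log2, limma adjusted p = 0.00324) and Vmn1r157 rose 6.12-fold (2.61 ± 0.40, limma adjusted p = 0.00133). Vmn1r111, Vmn1r135 and Vmn1r257 rose 4.32-fold, 4.19-fold and 3.91-fold, with limma adjusted p of 0.00330, 0.00369 and 0.00410. Vmn1r241 rose 2.88-fold (1.53 ± 0.45, limma adjusted p = 0.0196). The sizes depended on the background correction: with normexp the changes were 1.68 log2 for Vmn1r259, 1.65 for Vmn1r157, 1.14 for Vmn1r111, 1.24 for Vmn1r135, 1.17 for Vmn1r257 and 0.93 for Vmn1r241, all 6 still called, and the median over the 10 genes was 1.15. The call of Vmn1r241 was lost without control 1 (0.0528), control 2 (0.0709), naringenin 1 (0.0641) or naringenin 2 (0.0645), and also without scaling (0.0941) and with the scan as a random block (0.0502). Vmn1r62 rose by 1.58 ± 0.45 log2 (limma adjusted p = 0.0174) with 1 of 3 controls detected, or at least 2.14-fold on the bound above. It too entered the test only with naringenin arrays counted. Its call was lost without control 1 (0.0677), control 2 (0.0580) or naringenin 1 (0.0630), and also without scaling (0.0832) and with normexp (0.42 log2, 0.113). The bound for Vmn1r62 does not hold with normexp either. Beside these changes, the negative spots, which passed no filter, had a median change of −0.72 log2 with 28.3% of them above 0. Their 5th to 95th percentiles ran from −2.86 to 2.43, so some negative spots rose by more than the Vmn1r median of 2.25. Vmn1r63, which was not tested, had a change of −0.74.

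**Figure D4:**
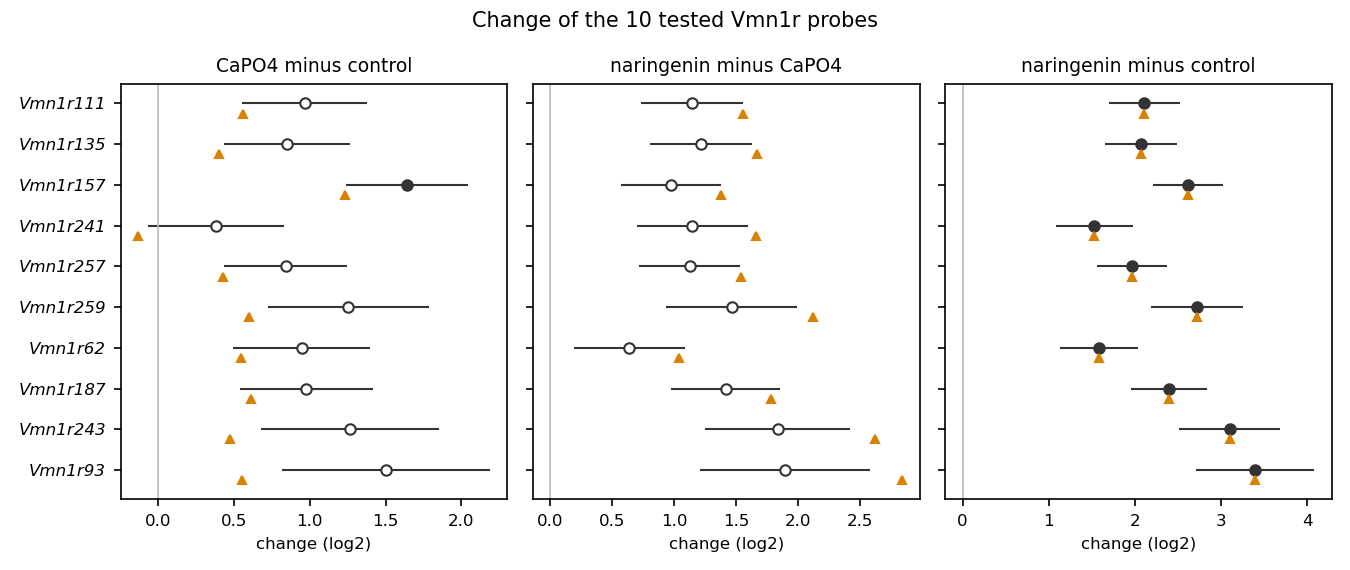
Change (log2) of the 10 tested Vmn1r genes in each of the 3 comparisons, with bars of 1 SE and filled points where the limma adjusted p was under 0.05; orange triangles are the values without CaPO4 2. All 10 points are filled in naringenin minus control, 1 in CaPO4 minus control and 0 in naringenin minus CaPO4, where removing CaPO4 2 raised each value.

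CaPO4 arrays were compared with controls in the same fit, in which 10.1% of all probes were called higher and 21.5% in either direction. Of 10 Vmn1r genes tested, 1 was called higher: Vmn1r157, by 1.64 ± 0.40 log2 or 3.12-fold (limma adjusted p = 0.0205). The changes of the 10 genes were all above 0, with a median of 0.97 against −0.04 over all probes. Over the 102 other RefSeq probes tested the median was close to this, at 0.92. Of these probes 69 were above 0, with 24 called higher and 5 called lower. In 7 of the 10 each CaPO4 array lay above each control (Vmn1r93, Vmn1r111, Vmn1r135, Vmn1r157, Vmn1r243, Vmn1r257 and Vmn1r259), which held for 22.8% of all probes. For Vmn1r93 and Vmn1r243 that order rests on values that were not well above background on the controls and on CaPO4 1 and 3. The negative spots had a median change of 0.42 log2 here, with 67.8% of them above 0, the same direction as the Vmn1r genes. Their 5th to 95th percentiles ran from −1.47 to 1.52, a range that takes in the Vmn1r median. The Vmn1r genes not called ran from 0.38 (Vmn1r241, limma adjusted p = 0.561) to 1.50 (Vmn1r93, limma adjusted p = 0.138). Vmn1r93 and Vmn1r187 were not well above background on any control or on CaPO4 1 and 3. On the bound used above they stood at 0.79-fold and 0.47-fold, so no rise can be stated for them. Over the 6 genes detected on all arrays the median change was 0.91.

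The call of Vmn1r157 did not rest on CaPO4 2, since it was 1.23 log2 without that array (limma adjusted p = 0.0131, with 31.5% of all probes called), and it was 0.94 with normexp (limma adjusted p = 0.0357). It was lost without control 1 (0.0750), control 2 (0.0747) or control 3 (0.0556), without scaling between arrays (0.53 log2, limma adjusted p = 0.529, 31.8% of all probes called) and with the scan as a random block (0.0785, 7.21% called). Without both CaPO4 2 and naringenin 3, 5 of the 10 genes were called higher by limma, where 23.7% of all probes were called higher. The median of the 10 changes was 0.55 without CaPO4 2, and Vmn1r241 then stood at −0.13. Among all probes called in this comparison, 3765 were higher and 4241 lower as reported, 5234 and 2970 after scaling to the array median, 2707 and 5646 after scaling to a percentile over probes detected on all arrays and 326 and 11533 with no scaling. The share of higher calls over the array thus turned with the scaling.

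Naringenin arrays were compared with CaPO4 arrays to ask what differed with the compound among aneurysm mice. None of the 10 Vmn1r genes was called by limma (0 of 10), where 2.18% of all probes were called and 0.808% called higher. Changes ran from 0.64 for Vmn1r62 (limma adjusted p = 0.377) to 1.89 for Vmn1r93 (limma adjusted p = 0.131). Their median was 1.18, against 0.11 over all probes, 0.75 over the other RefSeq probes and −1.12 over the negative spots. Vmn1r93, Vmn1r187 and Vmn1r243 met the filter only through the 3 naringenin arrays and CaPO4 2, and Vmn1r62 only with naringenin arrays counted. The median and the largest change thus depended in part on the group where these genes were high. Over the 6 genes detected on all arrays the median was 1.14. The 5th to 95th percentiles of the negative spots ran from −1.81 to 1.27, a range that takes in the Vmn1r median. Only in Vmn1r187 did each naringenin array lie above each CaPO4 array, as in 12.5% of all probes. Vmn1r187 was not well above background on CaPO4 1 or 3. On a bound made as above its change was 0.91-fold, so no rise can be stated for it. Among all probes, calls split into 303 higher and 516 lower as reported, 300 and 1121 after median scaling, 289 and 5 on unscaled values, and 361 and 307 with the percentile taken over detected probes.

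This comparison turned on CaPO4 2. Without it, 9 of the 10 genes were called higher (all but Vmn1r62, 1.04 log2, limma adjusted p = 0.0534), the median was 1.66, and 25.3% of all probes were called higher. Of genes detected on every array, Vmn1r259 then stood at 2.12 and Vmn1r157 at 1.38. Vmn1r93, Vmn1r187 and Vmn1r243 are among the 9 but were not well above background on CaPO4 1 or 3, so the sizes of their differences are not given. On the arrays kept they were detected only with naringenin, so the count and median depended in part on the group where they were high. The genes detected on every array were all among the 9. With naringenin 3 left out as well, the count was again 9 of 10, with 34% of all probes called higher. Within scan 3, which held the 3 CaPO4 arrays and naringenin 1 and 2, changes ran from 0.76 to 2.08 and no probe of the array was called by limma (0%), Vmn1r or other. Whether CaPO4 2 belongs with its label cannot be told from these values.

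The pattern over arrays was shared by genes that are no vomeronasal receptors. Of named RefSeq genes outside the family, the 3 whose centred levels lay closest to those of Vmn1r157 over 9 arrays were Gm20806 (mean absolute difference 0.165 log2), Csprs (0.202) and Ssty1 (0.202), of which Gm20806 and Ssty1 lie on the Y chromosome. The nearest Vmn1r genes were Vmn1r259 (0.251) and Vmn1r111 (0.261), and the median over 115 named RefSeq probes was 0.701. Over the array, 4078 of 36923 probes lay closer to Vmn1r157 than the farthest of the Vmn1r genes detected on all arrays. In naringenin against control, 20 of 22 Y-linked RefSeq probes were called higher as well, with a median of 3.13 log2 over the 22. Of all 102 RefSeq probes tested outside Vmn1r, 49 were called higher and 13 lower, and 72 had a change above 0. Over all probes, 22.6% were called higher. Of 3 probes for the germline families Pramel and Nlrp4, 2 were called higher and 1 lower.

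Genes that mark other tissues moved on the same arrays. Amy2a5, a pancreatic amylase, read 0.14, 0.57 and 0.74 on controls, 2.07, 11.08 and 2.08 on CaPO4 and 11.03, 11.15 and 9.96 on naringenin arrays. Ssty2, a spermatid gene of the Y chromosome, read −0.51, −0.54 and −0.82, then 0.92, 2.84 and 0.69, then 3.43, 3.37 and 2.22. CaPO4 2 lay within the range of the naringenin arrays in both. Ccl21b, a lymphoid chemokine, read 5.09, 5.08 and 4.97, then 7.62, 9.68 and 7.74, then 9.61, 9.60 and 8.54; CaPO4 2 was slightly above them. The pancreatic and spermatid genes were 1 of 6 pancreatic acinar markers and 1 of 2 measured testis markers (of 6), the other being Ssty1, and Ccl21b was 1 of 2 measured lymphatic markers (of 5). Their part in the Vmn1r levels was not tested.

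The design named few genes that bear on a vomeronasal source. None of the 8 sensory neuron markers (Omp, Trpc2, Gnai2, Gnao1, Cnga2, Adcy3, Gnal and Stoml3) and none of the markers of smooth muscle (0 of 5), endothelium (0 of 4), macrophages (0 of 4), T and B cells (0 of 2), adipocytes (0 of 3) or neurons (0 of 3) was named on the array, nor any other chemosensory receptor. The labelled tissue and the presence of receptor neurons could therefore not be checked against defining markers. In a tissue sample, fewer cells of a type and less RNA per cell cannot be told apart.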

How the data were processed

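RNA of 9 arrays was labelled with Cy3 after rRNA removal and random priming, per the labels' protocols. The authors made the intensity values with Agilent Feature Extraction 11.0.1.1, per the file headers, from a design that the headers annotate to mm9. The deposited table held the same unscaled intensity, within 0.0999%. The well above background flags are as deposited by the authors.

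Outlier spots were removed, spots of a probe averaged, and log2 intensity set against each array's 75th percentile. Probes detected on at least 3 of 9 arrays were kept (37498). limma 3.58.1 in R 4.3.3 fitted 1 mean per group, with Benjamini-Hochberg adjustment, and was tested on simulated data. Alternatives were normexp with offset 50, other scalings, filters, blocks and arrays left out. The number of arrays limits precision.

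Of 123 RefSeq identifiers, 116 matched names (assembly GRCm38). Gene-start windows came from RefSeq (GRCm38.p6) and were aligned with edlib 1.3.9.post1. Every Vmn1r gene is named. Windows are printed for genes detected on all arrays, and window identity stands in for protein identity, for which no sequences were used here. Like genes are the 3 nearest named ones. Members and lists were chosen with earlier results of these data known. Python 3.11.15 and matplotlib 3.10.9 drew the figures.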

Additional observations from a re-analysis of the deposited data

How the results depend on the processing

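For naringenin minus control, the changes of the 10 Vmn1r genes tested stayed above 0 under every alternative that tested them, while without a detection filter 11 of 12 were above 0, Vmn1r63 being the exception at −0.74. Their median was 1.15 with normexp against 2.25 as reported. The called number was 6 of the 6 tested with a filter of detection on all 9 arrays and 8 to 10 with each array left out. Of all probes, 22% were called higher with that filter and 15.8% to 31.1% with each array left out. For CaPO4 minus control the number called was 1 as reported, 2 with normexp, 0 without scaling, 0 with scan as a random block, 0 to 2 with each array left out and 5 without CaPO4 2 and naringenin 3, an alternative chosen after seeing the data. The share of all probes called higher was 10.1% as reported, 8.19% with normexp, 0.874% without scaling and 3.54% with scan as a random block. It was 3.65% to 14.1% with each array left out and 23.7% without CaPO4 2 and naringenin 3. Without scaling, the median of all probes was −1.15 and the CaPO4 change was −0.27 for Vmn1r257, −0.13 for Vmn1r187, −0.14 for Vmn1r111, −0.73 for Vmn1r241, −0.26 for Vmn1r135 and −0.16 for Vmn1r62. Vmn1r241 ran from −0.13 (without CaPO4 2, with or without naringenin 3) to 0.70 (without CaPO4 1) with single arrays left out. For naringenin minus CaPO4 the number called was 0 to 9 with each array left out, the 9 being without CaPO4 2, and 9 without CaPO4 2 and naringenin 3. Of all probes, 0.064% to 25.3% were called higher with each array left out, the 25.3% being without CaPO4 2. The share was 34% without CaPO4 2 and naringenin 3. With normexp, Vmn1r187 was at −0.025 and Vmn1r62 at −0.18. The cause of these shifts was not tested. Detection was 67.6% of values by the reported flag, 90.7% by the scanner's flag for positive and significant spots and 47.2% above the 99th percentile of negative spots.

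Whether replicate numbers pair the arrays was not settled by the values. Same-numbered deviations correlated between −0.17 and 0.24, and 5 of 9 arrays correlated best with their own number. With the replicate block, 1, 0 and 10 Vmn1r genes were called in CaPO4 minus control, naringenin minus CaPO4 and naringenin minus control, and 7501, 414 and 16945 probes of the whole array, where 8006, 819 and 17114 were called without it. Scan as a fixed block could not be fitted for the comparisons with control.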
